A study of Mus musculus with 30 samples.

Results

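The 10 genes described here make or serve red blood cells, and all 10 were among the 19938 genes measured in spleen and lymph node of mice with and without an HIV-1 transgene. They were taken as a named list, each through its only probe set with a single gene symbol. The list holds 8 genes grouped here as largely restricted to red cell precursors (Alas2, Klf1, Gata1, Epor, Slc4a1, Rhag, Kel and Car1) and 2 that many other cells also use (Tfrc and Car2). That grouping was not tested in these data. The mean of the 8 restricted genes was higher in spleen than in the lymph node of the same animal in 13 of 15 mice, while Tfrc stood higher in lymphoma than in either other state in both tissues.

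Red cells arise from marrow progenitors that pass through proerythroblast and erythroblast stages, fill with haemoglobin and lose their nucleus. In adult mice the red pulp of the spleen is a second site of this process and expands when red cells are in demand, whereas a lymph node is not normally such a site. The transcription factors GATA1 and KLF1 switch on the programme, the erythropoietin receptor (Epor) keeps the precursors alive, and ALAS2 performs the first and rate-limiting step of haem synthesis in them. The membrane proteins follow, among them the band 3 anion exchanger (Slc4a1), the Rh-associated glycoprotein (Rhag) and the Kell blood group protease (Kel). Car1 and Car2 encode carbonic anhydrases of the red cell cytosol. Tfrc encodes the transferrin receptor, which brings iron into red cell precursors and into any dividing cell.

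The mice fell into 3 disease states, with spleen and lymph node from every one of 15 mice, giving 30 arrays. FVB/N mice without the transgene were the controls (3 mice), and heterozygous Tg26 mice on the same FVB/N background were either asymptomatic (6 mice) or had lymphoma (6 mice). Tg26 animals carry a pNL4-3 provirus of HIV-1 that has lost part of gag-pol and makes no infectious virus. All animals were killed between 5 and 12 months of age, and an age or sex for each mouse was not used here. The labels name batch A for mice 1 to 3 of each state and batch B for mice 4 to 6 of both Tg26 states, so no control stood in batch B. Values are log2 expression levels, on which a difference of 1 is a doubling, and the median level over genes was 7.01.

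Marker genes placed most arrays with their label, but not every lymphoma node. Glycam1, a product of the high endothelial vessels of lymph nodes, lay between 9.48 and 12.23 in FVB/N nodes and between 5.71 and 5.85 in FVB/N spleens. It lay only between 5.80 and 8.80 in lymphoma nodes, which overlapped the lymphoma spleens at 5.48 to 6.05. Rag1, a recombinase of lymphocyte precursors, lay between 9.73 and 11.36 in the lymphoma spleens and between 5.40 and 5.79 in the asymptomatic spleens. In nodes it lay between 9.85 and 11.22 in lymphoma and between 5.24 and 7.59 in asymptomatic mice, with mouse 4 the highest of the latter. In 10 of the 30 arrays the mean over a list of salivary gland, exocrine pancreas or fat and muscle genes was more than 1 log2 unit above its median over all arrays. The closest replicate arrays were FVB/N spleens 2 and 3, whose genes differed with an SD of 0.151, and asymptomatic spleens 1 to 3, at 0.165 to 0.182, against 0.263 to 0.777 for all other replicate pairs. The labels give these as separate mice.

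The red cell genes of 3 arrays went against their labelled tissue. The node array of asymptomatic mouse 6 held Slc4a1 at 11.58, above all 6 asymptomatic spleens. The same array had a mean of 13.45 over the exocrine pancreas list and Spic, a factor of splenic red pulp macrophages, at 10.33. Spic did not separate the tissues, with asymptomatic nodes 4 and 5 at 9.20 and 9.12 and asymptomatic spleens between 8.90 and 9.44. Genes high in nodes stayed raised on this array, with Glycam1 at 8.22 and Lyve1 at 8.24. The asymptomatic spleens reached at most 6.07 and 5.79 for these genes. In lymphoma mouse 4 the spleen array held Car1 at 6.16 and Spic at 5.36, both the lowest of the lymphoma spleens, while its node array held Car1 at 10.36. One label of that spleen array carries the disease code of the controls, although its title and description give lymphoma, and it was kept as lymphoma. Results that turn on these 3 arrays are given with and without them. The arrays were singled out by the levels of these same genes, so a fit without them describes the remaining arrays and is no independent test of the tissue order.

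A group of 5 members carries, close upstream of their start site, the hexamer AGATAA or TGATAA, which holds the core bound by GATA factors. They are printed to show what the group shares in sequence. Varying together across arrays was not particular to these 5 members. Pearson correlations over 30 arrays ran from 0.6 (Alas2 with Epor) to 0.97 (Rhag with Kel) between them. Gata1, which held neither hexamer there, correlated with the same 5 at 0.73 (Epor) to 0.9 (Klf1 and Rhag). Whether the hexamers had a part in the shared variation was not tested. RefSeq's promoter windows for GRCm38.p6 matched 7 of the 10 members (Alas2, Klf1, Gata1, Epor, Rhag, Kel and Tfrc). Each line gives the 150 bases before the annotated start, read 5′ to 3′ on the gene's own strand, with matches to the searched motifs on either strand in capitals.
Alas2: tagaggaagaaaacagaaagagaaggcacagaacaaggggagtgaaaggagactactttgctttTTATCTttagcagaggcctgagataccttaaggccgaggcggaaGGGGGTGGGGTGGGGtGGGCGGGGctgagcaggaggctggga
Klf1: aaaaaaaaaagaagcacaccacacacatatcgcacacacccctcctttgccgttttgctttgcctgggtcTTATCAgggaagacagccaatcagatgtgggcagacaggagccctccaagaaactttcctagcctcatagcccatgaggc
Epor: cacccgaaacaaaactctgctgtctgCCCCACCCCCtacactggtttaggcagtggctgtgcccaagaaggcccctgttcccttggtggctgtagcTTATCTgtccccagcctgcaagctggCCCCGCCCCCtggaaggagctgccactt
Rhag: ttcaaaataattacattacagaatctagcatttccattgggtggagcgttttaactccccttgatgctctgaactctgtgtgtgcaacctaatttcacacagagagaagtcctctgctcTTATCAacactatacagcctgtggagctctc
Kel: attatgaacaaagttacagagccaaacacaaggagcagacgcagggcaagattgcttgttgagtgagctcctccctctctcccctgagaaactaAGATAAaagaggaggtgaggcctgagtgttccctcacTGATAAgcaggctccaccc

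These stretches are chrX:150547267-150547416 on the plus strand for Alas2, chr8:84901832-84901981 on the plus strand for Klf1 and chr9:21963577-21963726 on the minus strand for Epor. Rhag's is chr17:40810999-40811148 on the plus strand and Kel's is chr6:41704326-41704475 on the minus strand. In the full windows of 300 bases (250 before the start and 50 after it), either hexamer occurred on either strand in 5 of the 7 members and in 18.6% of the 32851 promoter windows of the genome. Kel held both, starting at positions -56 and -19 counted from the start site. The other motif searched, CCNCNCCC, which covers the CACCC boxes bound by KLF factors and whose matches overlap no hexamer in these lines, occurred on either strand in Alas2, Gata1, Epor and Tfrc, that is in 4 of 7 members, against 49.5% of all windows. Alas2 and Epor held a hexamer together with CCNCNCCC, a pair found in 5.73% of all windows. A match describes the letters in the window and shows no binding.

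In control mice the red cell genes separated the tissues without overlap for 6 of the 8 restricted members. Among all genes, every spleen lay above every node for 18% and below for 9.44%. Car1 lay at 11.90, 10.16 and 10.29 in the 3 FVB/N spleens and at 5.49, 5.98 and 5.45 in the nodes of the same mice. Slc4a1 lay at 10.75, 9.24 and 9.27 in spleen and at 6.46, 6.19 and 6.25 in node. Every spleen exceeded every node for these genes, and also for Alas2, Klf1, Rhag and Kel. Car1 was 5.36 higher in spleen in the fit (SE 1.34, adjusted p = 0.0231), Slc4a1 3.25 (SE 0.82, adjusted p = 0.0235) and Kel 2.18 (SE 0.60, adjusted p = 0.041). Rhag, at 8.37, 6.61 and 6.81 in spleen and 4.13, 3.93 and 4.15 in node, was 3.00 higher (SE 0.96) with an adjusted p of 0.08. Together with Car2, 4 of 10 members passed as higher in FVB/N spleen and 0 as lower, where 2.13% of all genes passed as higher and 2.14% as lower. Each of these calls was lost when any one of FVB/N mice 1, 2 and 3 was left out, except that Car2 kept its call without FVB/N mouse 2 (adjusted p up to 0.607 for Car2, 0.564 for Kel, 0.432 for Slc4a1 and 0.366 for Car1). Kel lost its call also without any one of asymptomatic mice 1 to 4 or lymphoma mice 2 and 5, and Car2 without any one of asymptomatic mice 1 to 4 or lymphoma mice 1 to 6. With the closest spleen arrays averaged, FVB/N spleens 2 and 3 among them, 0 of the 4 passed (adjusted p 0.0873 for Slc4a1, 0.113 for Kel, 0.0886 for Car1 and 0.142 for Car2), and without surrogate variables Car1 alone did (adjusted p = 0.0196).

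**Figure D1:**
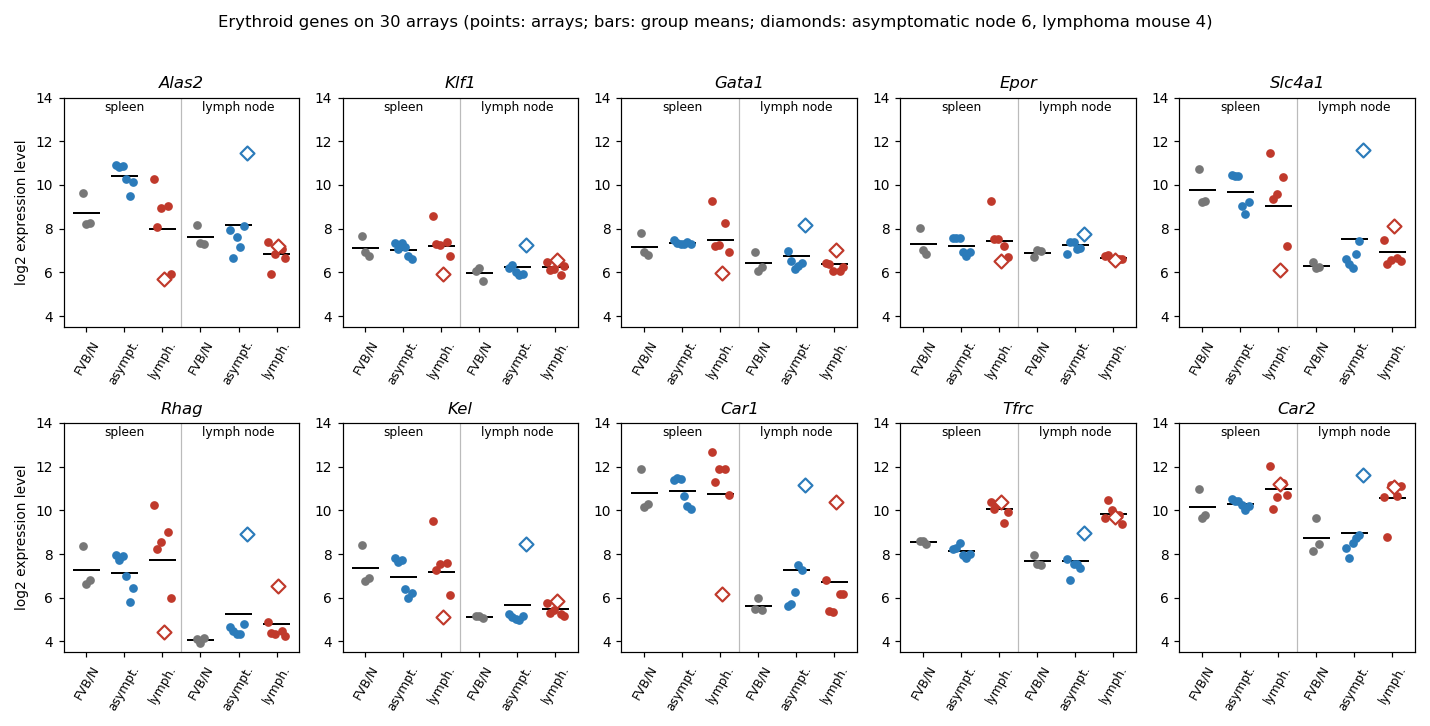
Log2 expression level of the 10 genes (one panel each) on the 30 arrays, by state and tissue. Points are arrays, bars are group means and open diamonds mark the node of asymptomatic mouse 6 and both arrays of lymphoma mouse 4. Car1, Slc4a1, Rhag and Kel stand high in most spleens and low in most nodes, and Tfrc stands at 9.38 or above in all 12 lymphoma arrays.

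The regulators of the programme gave no call between FVB/N spleen and node. Klf1 lay at 7.68, 6.92 and 6.75 in FVB/N spleens and at 6.06, 6.20 and 5.61 in the nodes, and was 1.17 higher in spleen (SE 0.40, adjusted p = 0.103). Gata1 lay at 7.79, 6.95 and 6.78 in spleen and at 6.95, 6.06 and 6.26 in node. Epor lay at 8.02, 7.04 and 6.86 in spleen and at 6.68, 7.03 and 6.96 in node, so that these 2 genes overlapped between the tissues and neither passed. Alas2, at 9.65, 8.22 and 8.27 in spleen and 8.19, 7.34 and 7.31 in node, was 0.72 higher in spleen (SE 0.66, adjusted p = 0.677).

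Asymptomatic Tg26 mice held the same order of tissues, apart from mouse 6. Car1 ranged from 10.04 to 11.46 in the 6 spleens (median 11.03) and from 5.63 to 7.48 in the nodes of mice 1 to 5, with mouse 6 at 11.14. Rhag ranged from 5.79 to 7.97 in spleen (median 7.36) and from 4.34 to 4.78 in the nodes of mice 1 to 5, with mouse 6 at 8.91. No spleen overlapped the 5 nodes for these genes. How many of all genes separate these arrays was not counted, and node 6 was set apart by these same genes, so this is a description. Alas2 was 2.51 higher in spleen (SE 0.57, adjusted p = 0.00991), Slc4a1 2.79 (SE 0.70, adjusted p = 0.0198), Kel 1.87 (SE 0.52, adjusted p = 0.0345), Car1 4.37 (SE 1.15, adjusted p = 0.0257) and Car2 2.5 (SE 0.42, adjusted p = 0.00105). Thus 5 of 10 members passed as higher in spleen and 0 as lower, against 2.26% and 3.36% of all genes. Without surrogate variables Slc4a1 (adjusted p = 0.0602), Kel (adjusted p = 0.148) and Car2 (adjusted p = 0.0599) lost their calls. With the closest spleen arrays averaged, asymptomatic spleens 1 to 3 among them, Slc4a1 (adjusted p = 0.0616), Kel (adjusted p = 0.112) and Car1 (adjusted p = 0.0649) lost theirs.

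The calls in asymptomatic mice held in batch A and not in batch B. Batch A holds asymptomatic spleens 1 to 3, which were among the closest replicate arrays. Within batch A alone 7 members passed, against 4.37% of all genes in either direction, with Rhag 3.37 higher in spleen (adjusted p = 0.000791) and Alas2 3.48 (adjusted p = 0.00185). Within batch B, which holds the node of mouse 6, 0 passed, against 7.74% of all genes, and the values were 0.40 for Rhag (adjusted p = 0.882) and 1.05 for Alas2 (adjusted p = 0.586). Without that node and without lymphoma mouse 4, 7 members passed with surrogate variables and 9 without them, all higher in spleen, against 8.55% and 13.5% of all genes in either direction. Leaving out any 1 of FVB/N mice 1, 2 and 3 or asymptomatic mouse 4 left 1 member, Car2. Slc4a1 lost its call also without asymptomatic mouse 1 or 3, Car1 without asymptomatic mouse 1, 2 or 3, and Kel without these 3 or lymphoma mouse 1, 2, 3 or 6. The measured difference of Epor was -0.04 in these mice, against a fitted 0.51 (adjusted p = 0.391).

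In lymphoma the spleens themselves spread widely. Rhag ranged from 4.43 to 10.25 in the 6 lymphoma spleens (median 8.39) and from 4.25 to 6.55 in the nodes (median 4.42). Car1 ranged from 6.16 to 12.65 in spleen (median 11.60) and from 5.33 to 10.36 in node (median 6.17). The lowest spleen and the highest node both came from mouse 4, and without that mouse every lymphoma spleen lay above every lymphoma node for Car1 and Rhag. How many of all genes separate the remaining arrays was not counted, so this too is a description. Over all arrays 0 of 10 members passed, with Rhag 2.67 higher in spleen (SE 0.57, adjusted p = 0.0821) and Car1 3.62 (SE 0.79, adjusted p = 0.0821). Only 0.0552% of all genes passed as higher and 0% as lower in this comparison (11 genes in limma's test), while 8 members had an unadjusted p below 0.05, all higher in spleen, against 4.08% of all genes as higher and 4.25% as lower.

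Leaving out lymphoma mouse 4 moved the count in lymphoma to 6 members, all higher in spleen, with all other mice kept, against 1.15% of all genes in either direction. That mouse was singled out by these genes, so the count describes the other 5 lymphoma mice. With the node of asymptomatic mouse 6 also left out, Car1 was 5.29 higher and Rhag 3.58. Within batch A, which does not hold mouse 4, 5 members passed, against 0.572% of all genes, and Car1 was 6.11 higher in spleen (adjusted p = 1.5e-05). Within batch B none of the members passed, and 0 of all 19938 genes did.

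Compared within each mouse, the mean of the 8 restricted genes was higher in spleen than in node in 13 of 15 mice. The difference ranged from 1.75 to 2.93 in the 3 controls, from 1.11 to 2.70 in asymptomatic mice 1 to 5 and from 1.05 to 3.65 in 5 of the lymphoma mice. It was -1.47 in asymptomatic mouse 6 and -1.54 in lymphoma mouse 4, the only mice in which the node exceeded the spleen. Epor, whose product is the receptor for erythropoietin, followed this pattern in 9 of 15 mice, and Alas2, Tfrc and Car2 in 12 of 15 each. Differences were rounded to 2 decimals before counting, and Epor in FVB/N mouse 2, at 7.04 in spleen and 7.03 in node, counted as 0.0.

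**Figure D2:**
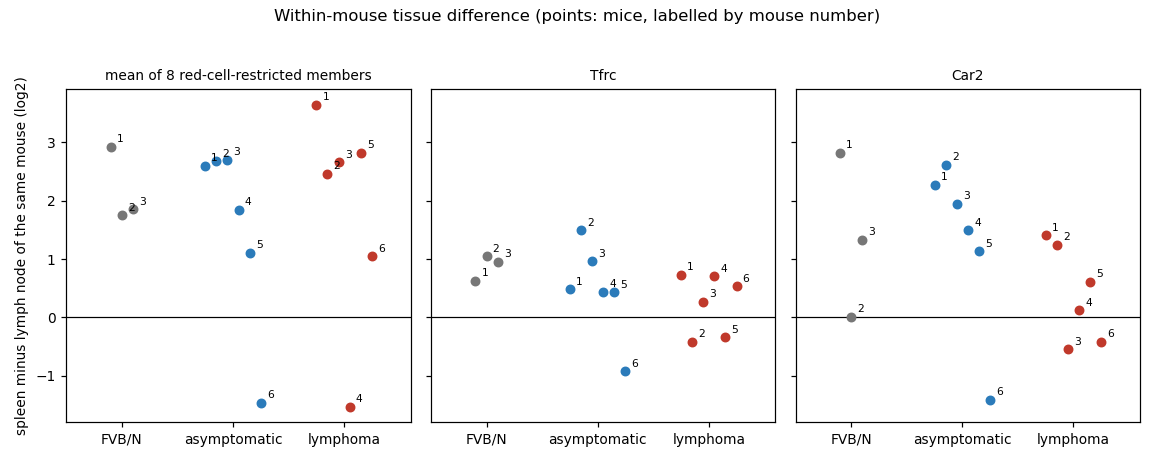
Spleen minus lymph node of the same mouse, in log2 units, for the mean of the 8 restricted genes, for Tfrc and for Car2. Points are mice, labelled by number within their state. Asymptomatic mouse 6 and lymphoma mouse 4 are the only points below 0 for the restricted genes.

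Alas2 was the one member called between asymptomatic Tg26 mice and controls, and it was called in spleen. It lay at 9.65, 8.22 and 8.27 in the FVB/N spleens and between 9.49 and 10.92 in the 6 asymptomatic spleens (median 10.55). The groups touch at 1 point, since FVB/N spleen 1 lay above asymptomatic spleen 5. The fitted difference was 2.26 (SE 0.50, adjusted p = 0.0359). It was the single member called of 10 where 0.306% of all genes passed as higher and 0.311% as lower. The value stayed between 1.70 and 2.51 under every alternative, and the call held in 5 of 15 alternatives and in 7 of 15 fits that left out a mouse. It was lost without surrogate variables (1.70, adjusted p = 0.899), within batch A (2.16, adjusted p = 0.313) and with the closest spleen arrays averaged (1.97, adjusted p = 0.756). It was also lost when asymptomatic mouse 1, 2, 3 or 4, FVB/N mouse 2 or 3, or lymphoma mouse 1 or 5 was left out (adjusted p 0.0557 to 0.518).

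None of the other 7 restricted members passed in that comparison. Slc4a1 lay at 10.75, 9.24 and 9.27 in FVB/N spleens and between 8.67 and 10.46 in asymptomatic spleens, with a fitted difference of 0.49 (95% interval -0.79 to 1.76). Rhag differed by 0.44 (-1.06 to 1.94), Klf1 by 0.20 (-0.42 to 0.83) and Gata1 by 0.40 (-0.37 to 1.16). Car1 differed by 0.16 (-1.93 to 2.26), so that differences of more than 1 log2 unit either way lie inside the intervals of Rhag and Car1. Genes listed as markers of red pulp macrophages, which take up old red cells and recycle their iron, differed in the same spleens. The mean over the 13 measured genes of that list lay between 6.88 and 6.97 in FVB/N and between 8.08 and 8.56 in asymptomatic spleens. Of the 13, 6 passed as higher, against 0.306% of all genes, among them Hmox1 (2.05, adjusted p = 0.00675), which breaks down haem. The list was not particular to spleen. Its mean lay between 6.96 and 8.64 in FVB/N nodes and between 7.09 and 9.65 in asymptomatic nodes. Whether macrophages had a part in the Alas2 difference was not tested.

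Set against the other 7 restricted genes on the same array, Alas2 separated the spleens by state. Alas2 minus the mean of those genes was 0.55 to 0.66 in the FVB/N spleens, 2.12 to 2.59 in the asymptomatic spleens and -1.28 to 0.43 in the lymphoma spleens. The 3 ranges did not overlap, and the asymptomatic range covers both batches. The levels of the genes differed by batch, with a mean of the 8 restricted genes of 8.75 to 8.87 in batch A and 7.63 to 8.09 in batch B asymptomatic spleens. In nodes the ranges overlapped, at 1.54 to 2.34 in FVB/N, 0.65 to 2.45 in asymptomatic and -0.07 to 1.20 in lymphoma mice. This offset was chosen after the values were seen and is given as a description. Each of these tissues is a mixture of cells, so fewer cells of a type and less RNA per cell cannot be told apart.

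**Figure D3:**
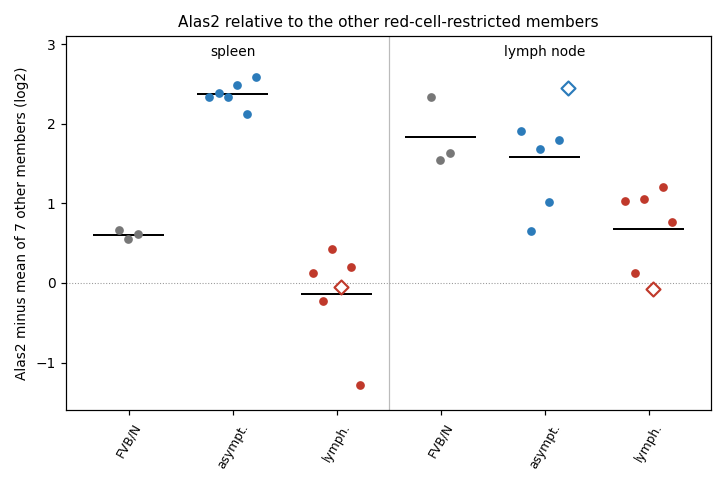
Alas2 minus the mean of the other 7 restricted genes on the same array, in log2 units, by state and tissue. Points are arrays, bars are group means and diamonds mark the node of asymptomatic mouse 6 and both arrays of lymphoma mouse 4. Asymptomatic spleens lie between 2.12 and 2.59, above all FVB/N and lymphoma spleens.

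The measured mean of Alas2 was lower in lymphoma spleens than in asymptomatic spleens, and the other 7 restricted genes had measured differences between -0.68 and 0.60. Alas2 ranged from 5.70 to 10.27 in the 6 lymphoma spleens (median 8.52) against 9.49 to 10.92 in the asymptomatic spleens. In 5 of the 6 lymphoma spleens it lay below every asymptomatic spleen, and only lymphoma spleen 1, at 10.27, lay among them. The measured means differed by -2.43, but the fit with surrogate variables gave -0.85 (SE 0.50, 95% interval -1.89 to 0.19, adjusted p = 0.293). Without surrogate variables it was -2.43 (adjusted p = 0.0103), within batch A -1.77 (adjusted p = 0.035) and within batch B -3.08 (adjusted p = 0.0926). Alas2 was lower in lymphoma in all 31 alternatives and passed in 11 of 16, and in 5 of 15 that left out a mouse. Without the node of asymptomatic mouse 6 the difference was -1.70 (adjusted p = 0.00235), and without all 3 arrays that went against their label -1.39 (adjusted p = 0.0146).

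Lymphoma spleen 1 was high in every restricted gene, at 9.25 for Epor, 9.28 for Gata1, 8.56 for Klf1, 10.25 for Rhag and 9.52 for Kel, the highest level of each on any array. Lymphoma spleens 4 and 6 were low, at 6.11 and 7.22 for Slc4a1 against 9.36 to 11.45 in the other 4. The SD of the mean of the 8 genes was 1.53 over lymphoma spleens and 0.54 over asymptomatic spleens. Lymphoma spleens 4 and 6 also held the lowest mean over 11 megakaryocyte genes, at 6.24 and 6.83 against 7.33 to 7.86 in the other 4. Megakaryocytes share a progenitor with red cells, and their part in these values was not tested.

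In the fit 3 of 10 members passed as higher in lymphoma spleen and 0 as lower, against 8.58% and 7.25% of all genes. These were Tfrc and Car2, described below, and Rhag. Rhag ranged from 4.43 to 10.25 in lymphoma and from 5.79 to 7.97 in asymptomatic spleens, so the asymptomatic range lay inside the lymphoma range. Its measured means differed by 0.60 and its fitted difference was 2.20 (SE 0.73, adjusted p = 0.0427). That call was lost without surrogate variables (0.60, adjusted p = 0.748), within batch A (1.15, adjusted p = 0.113) and within batch B (0.05, adjusted p = 0.991). It was also lost without any 1 of asymptomatic mice 1, 2, 3, 5 and 6, FVB/N mouse 3 and lymphoma mice 1, 2, 3 and 5, with adjusted p from 0.0504 to 0.484. Without the 3 arrays that went against their label Rhag was 1.53 higher (adjusted p = 0.02).

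In lymph nodes the restricted genes were low in both Tg26 states apart from single arrays, and the fitted and measured differences pointed opposite ways for all 8. The fitted values ran from 0.24 (Gata1) to 1.89 (Slc4a1) and the measured ones from -1.30 (Alas2) to -0.02 (Klf1). Slc4a1 ranged from 6.18 to 7.43 in the nodes of asymptomatic mice 1 to 5, with mouse 6 at 11.58, and from 6.38 to 8.10 in lymphoma nodes. Kel ranged from 4.98 to 5.27 in the nodes of asymptomatic mice 1 to 5, with mouse 6 at 8.44, and from 5.16 to 5.87 in lymphoma nodes. The measured means over all 6 mice differed by -0.56 for Slc4a1 and -0.20 for Kel. Without mouse 6 the asymptomatic means were 6.70 and 5.11, against 6.95 and 5.46 in the lymphoma nodes. In the fit with surrogate variables Slc4a1 was 1.89 higher in lymphoma (SE 0.69, adjusted p = 0.0491) and Kel 1.59 (SE 0.51, adjusted p = 0.0247).

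Those 2 calls did not hold without the 3 arrays that went against their label. Without them Slc4a1 differed by 0.67 (adjusted p = 0.377) and Kel by 0.72 (adjusted p = 0.219), and without surrogate variables as well by 0.02 (adjusted p = 0.986) and 0.27 (adjusted p = 0.701). Slc4a1 kept its call in 1 of the 15 fits that left out a mouse, the one without asymptomatic mouse 4. Kel lost its call without asymptomatic mouse 1 or 6, FVB/N mouse 2 or lymphoma mouse 1, 3, 4, 5 or 6 (adjusted p 0.0616 to 0.22). With Tfrc and Car2, 4 of 10 members passed as higher in lymphoma node and 0 as lower, against 11.6% and 12.5% of all genes.

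**Figure D4:**
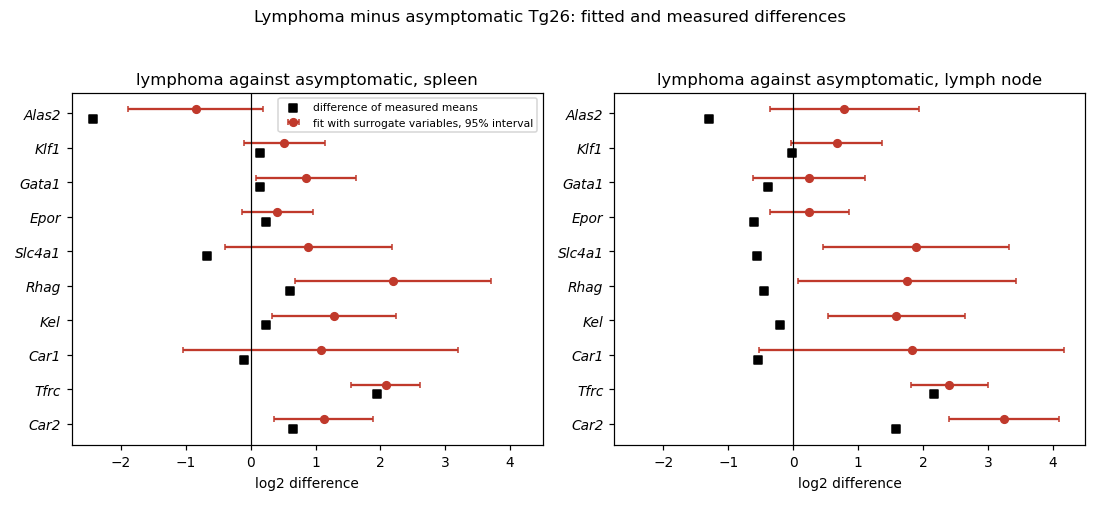
Lymphoma minus asymptomatic difference of each of the 10 genes, in log2 units, for spleen (left) and lymph node (right). Red circles are the fit with surrogate variables with its 95% interval, and black squares are the differences of the measured means. Tfrc is near 2 by both measures in both tissues, while all 8 restricted genes have their fitted and measured values on opposite sides of 0 in the node.

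Among the restricted genes only Epor had lymphoma and asymptomatic nodes that did not overlap. The share of all genes that separate these groups was not counted, so this is a description. Levels of Epor were as follows. They ranged from 6.85 to 7.74 in asymptomatic nodes (median 7.25) and from 6.57 to 6.80 in lymphoma nodes (median 6.63), with FVB/N nodes at 6.68, 7.03 and 6.96. The measured means differed by -0.60, whereas the fit gave 0.25 (95% interval -0.36 to 0.86, adjusted p = 0.615). Without surrogate variables the adjusted p was 0.138, and within batch B, where Epor was 0.71 lower (-0.71), it was 0.0267. Rhag lay at 4.13, 3.93 and 4.15 in FVB/N nodes, between 4.34 and 4.78 in asymptomatic nodes 1 to 5 and between 4.25 and 4.87 in 5 lymphoma nodes, with asymptomatic node 6 at 8.91 and lymphoma node 4 at 6.55. Apart from those 2 arrays these levels are near the lower end of the scale, where detection was not assessed. No member passed between asymptomatic and FVB/N nodes (0 of 10 in limma's test), where 1.34% of all genes passed as higher and 0.592% as lower. The lowest unadjusted p of a member in that test was 0.0588, for Epor.

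Lymphoma set directly against controls shares the lymphoma arrays with the comparison above. Tfrc and Car2 passed in both tissues in the fit with surrogate variables. In spleen 2 of 10 members passed, Tfrc (1.82, SE 0.31, adjusted p = 0.000316) and Car2 (1.41, SE 0.45, adjusted p = 0.042), against 7.1% of all genes as higher and 5.25% as lower. In node 5 passed, Tfrc, Car2, Slc4a1 (2.84, adjusted p = 0.0193), Rhag (2.96, adjusted p = 0.0382) and Kel (2.12, adjusted p = 0.0179), against 8.59% and 7.98%. The measured differences of the last 3 were 0.65, 0.74 and 0.33. Without surrogate variables, and again without the 3 arrays that went against their label, Tfrc and Car2 were the 2 that passed in node. In spleen Car2 did not pass in either of these fits (0.82, adjusted p = 0.414, and 0.88, adjusted p = 0.231). Leaving out FVB/N mouse 1 or 3 or lymphoma mouse 4 or 5 ended the calls of Slc4a1, Rhag and Kel, and lymphoma mouse 1 those of Slc4a1 and Rhag. Rhag lost its call also without asymptomatic mouse 1, 2 or 6, FVB/N mouse 2 or lymphoma mouse 2 or 6, and Car2 in spleen kept its call only without asymptomatic mouse 4 or 5 or FVB/N mouse 1.

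Tfrc was higher in lymphoma than in asymptomatic mice in both tissues, with no overlap between the states. In spleen it ranged from 9.43 to 10.39 in lymphoma (median 10.18) and from 7.80 to 8.50 in asymptomatic mice (median 8.14), with FVB/N at 8.59, 8.59 and 8.47. In node it ranged from 9.38 to 10.48 in lymphoma (median 9.73) and from 6.81 to 8.95 in asymptomatic mice (median 7.54), with FVB/N at 7.96, 7.54 and 7.52. All 12 lymphoma arrays lay above all 18 others. The share of all genes that separate the states in this way was not counted. In the fit 8.58% of all genes passed as higher in lymphoma spleen and 11.6% in lymphoma node. The Tfrc difference from asymptomatic mice was 2.08 in spleen (SE 0.26, adjusted p = 3.35e-06) and 2.40 in node (SE 0.29, adjusted p = 1.09e-06).

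The Tfrc difference held in every fit that was run. It ranged from 1.5 to 2.17 in spleen and from 1.66 to 2.67 in node over the 16 alternatives, was 1.89 and 2.67 within batch A and 1.98 and 1.66 within batch B, and passed without each of the 15 mice. The 4 comparisons of lymphoma Tfrc with asymptomatic and FVB/N mice were the 4 of 24 calls on members that passed in every alternative. The node minus spleen difference of the lymphoma change did not pass (0.32, 95% interval -0.41 to 1.05, adjusted p = 0.796).

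Tfrc and the restricted genes parted in some lymphoma arrays. Lymphoma spleen 4, which had the lowest mean of the 8 restricted genes of any array at 5.75, had the highest Tfrc of any spleen at 10.39. Outside lymphoma the node of asymptomatic mouse 6 held both the highest Tfrc, at 8.95, and the highest mean of the restricted genes, at 9.34, of 18 arrays. The mean of 29 proliferation genes ranged from 9.06 to 10.24 in lymphoma spleens and from 7.59 to 8.25 in asymptomatic spleens. Of these genes 28 of the 29 passed as higher in lymphoma spleen and 29 of 29 in lymphoma node, against 8.58% and 11.6% of all genes. Over the 30 arrays the Pearson correlation of Tfrc with single restricted genes ran from -0.21 to 0.30, pooled over states whose Tfrc levels differ. The genes outside the set with the pattern most like Tfrc over 30 arrays were Cpsf2 (r = 0.94), Cdc6 (0.932), Myb (0.928), Mms22l (0.928) and Brca2 (0.924). The arrays share 6 groups, 15 mice and 2 batches, so these values are a description.

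**Figure D5:**
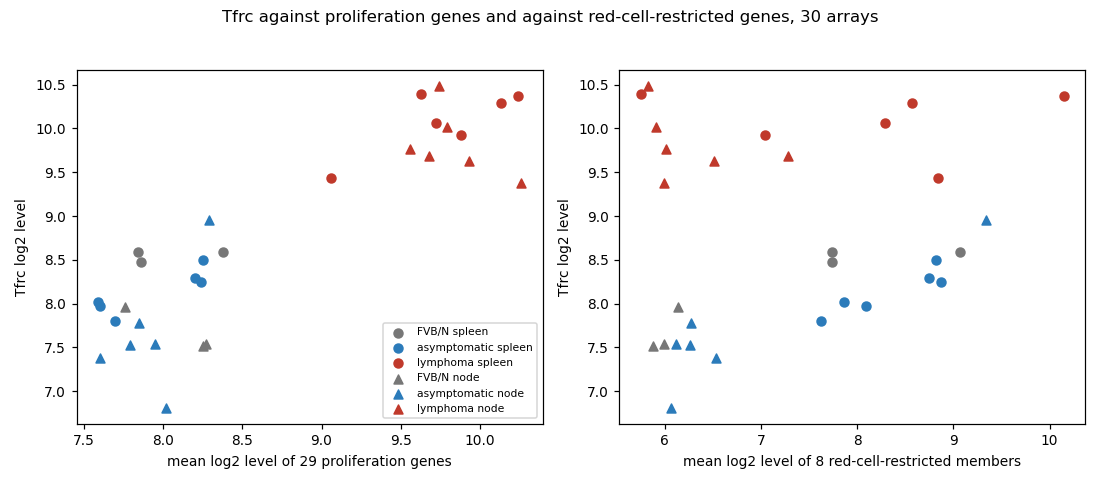
Tfrc level against the mean of 29 proliferation genes (left) and against the mean of the 8 restricted red cell genes (right), both in log2 units, on 30 arrays coloured by state, with circles for spleen and triangles for node. The 12 lymphoma arrays form the upper group in both panels, and on the right they span the range of the red cell genes from 5.75 to 10.15.

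Car2 was higher in lymphoma nodes. It ranged from 8.80 to 11.15 in lymphoma nodes (median 10.86) and from 7.81 to 8.89 in the nodes of asymptomatic mice 1 to 5, with mouse 6 at 11.60 and FVB/N nodes at 8.15, 9.65 and 8.47. Lymphoma node 2, at 8.80, lay inside the asymptomatic range, and the other 5 lymphoma nodes lay above asymptomatic nodes 1 to 5. The fitted difference was 3.25 (SE 0.41, adjusted p = 2.53e-06) and the measured difference 1.59. It was 2.02 (adjusted p = 0.000318) without surrogate variables and without the 3 arrays that went against their label. Within batch A it was 1.99 (adjusted p = 0.0287) and within batch B, which holds asymptomatic mouse 6, it was 1.20 (adjusted p = 0.168).

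In spleen Car2 differed less between the states. It lay at 10.97, 9.66 and 9.80 in FVB/N spleens, from 10.02 to 10.54 in asymptomatic spleens (median 10.34) and from 10.04 to 12.02 in lymphoma spleens (median 10.94). The ranges overlapped. The fit gave 1.13 (SE 0.37, adjusted p = 0.0393), against a measured difference of 0.65, and the call was lost without surrogate variables (0.65, adjusted p = 0.454) and within each batch. Without the node of asymptomatic mouse 6 it was 0.51 (adjusted p = 0.303), and without all 3 arrays that went against their label 0.84 (adjusted p = 0.179). It was also lost without any 1 of asymptomatic mice 2, 3 and 6, FVB/N mouse 3 and lymphoma mice 1, 2, 3 and 5 (adjusted p 0.0566 to 0.749).

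The node minus spleen difference of the lymphoma change in Car2 was 2.12 (SE 0.51, adjusted p = 0.0571), and its adjusted p was 0.0357 with the mouse as a block and 0.519 without surrogate variables. No member passed in the main fit of that comparison, where 0.256% of all genes passed as higher and 0.316% as lower. Alas2 and Car2 had an unadjusted p under 0.05 in limma's test, but the share of all genes under that limit was not counted here. Genes most like Car2 over the 30 arrays were Lpin2 (r = 0.817), Lyl1 (0.813), Pcyt1b (0.80), Plac8 (0.80) and Slc43a1 (0.798). Its correlations with single restricted genes ran from 0.26 to 0.61, between those of Tfrc and those among the restricted genes.

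The 8 restricted genes varied together across arrays. The Pearson correlation of their 28 pairs ran from 0.57 to 0.97 over 30 arrays, with a median of 0.86, and from 0.51 to 0.95 over the 15 spleens. Alas2 stood somewhat apart in spleen, with a median of 0.56 against its 7 partners. Among nodes much of the relation rested on 1 array: the median was 0.81 over 15 nodes and 0.39 over the 14 without asymptomatic mouse 6. Over those 14 the pairs ran from -0.59 (Epor with Kel) to 0.88 (Slc4a1 with Rhag, and Rhag with Car1), so some pairs still varied together. The genes outside the set most like the mean of the 8 were Ermap (r = 0.976), Rhd (0.967), Epb42 (0.959), Mfsd2b (0.959) and Sptb (0.937), followed by Slc38a5, Trim10, Cldn13, Add2 and Ank1 at 0.92 to 0.934. Several of these encode red cell membrane proteins, among them Rhd, a Rh blood group protein, Epb42 and Ank1, which anchor band 3, and Sptb, a spectrin chain.

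Other genes of the same pathway were called in spleen between lymphoma and asymptomatic mice, where 8.58% of all genes passed as higher and 7.25% as lower and the median difference over all genes was -0.03 fitted and -0.02 measured. Of 11 haem synthesis genes 3 passed as higher and 0 as lower, with a median of 0.23 fitted and -0.18 measured. Cpox, which acts late in the pathway, was 1.17 higher (adjusted p = 0.00259), Tmem14c, a mitochondrial porphyrin transporter, 0.46 (adjusted p = 0.0172) and Abcb6 0.60 (adjusted p = 0.042). Of 19 red cell membrane genes 3 passed as higher (median 0.84 fitted and 0.11 measured), namely Mpp1 (0.85, adjusted p = 5.99e-05), Add2 (1.00, adjusted p = 0.0279) and Slc14a1, a urea transporter (1.42, adjusted p = 0.00357), whose measured difference was -0.16. Of 20 erythroid regulators 6 passed as higher and 1 as lower (median 0.25 fitted and -0.09 measured), led by Gfi1b (1.79, adjusted p = 3.82e-05) and Cited2 (0.93, adjusted p = 0.000274), and the measured difference of Gfi1b was 0.61. Stat5b was the gene that passed as lower (-0.27, adjusted p = 0.0312).

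Iron genes split. Of 12 iron handling genes 3 passed as higher in lymphoma spleen, against the 8.58% of all genes, including Steap3, which reduces the iron that Tfrc brings in (0.95, adjusted p = 2.8e-05), and Ireb2, an iron sensor that stabilises Tfrc mRNA (0.44, adjusted p = 0.00229). Tfr2, a second transferrin receptor, was the other (0.81, adjusted p = 0.0147). The ferritin light chain gene Ftl1 was the 1 that passed as lower (-0.44, adjusted p = 0.00655). The median over the list was -0.07 fitted and -0.12 measured. The 4 embryonic globin genes that could be measured gave 0 calls, with Hbb-y at 0.24 (adjusted p = 0.283) and Hbb-bh2 at -0.17 (adjusted p = 0.344), and the adult globin genes had no probe set with a single symbol.

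The same lists between spleen and node of asymptomatic mice gave 3 of 11 haem synthesis genes, 2 of 19 membrane genes, 2 of 20 regulators and 1 of 12 iron genes as higher in spleen, and 0 as lower, against 2.26% and 3.36% of all genes. Rhd was 1.99 higher in spleen (adjusted p = 0.0274), Xk, which carries the Kx antigen beside Kell, 0.74 (adjusted p = 0.0287), Trim10 1.72 (adjusted p = 0.0304) and Nfe2 0.70 (adjusted p = 0.0295). Slc25a37, the mitochondrial iron importer of red cell precursors, was 0.91 higher (adjusted p = 0.0129) and Slc40a1, the iron exporter ferroportin, 3.05 (adjusted p = 0.00981). Abcb6 was 0.82 higher in the fit (adjusted p = 0.0296), while its measured means differed by -0.20. Neither Heph (-0.46, adjusted p = 0.165) nor the globins passed.

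Genes of marrow-type myeloid cells also differed between the tissues. The mean of 12 marrow myeloid genes lay between 7.91 and 8.96 in FVB/N spleens and between 5.50 and 5.76 in FVB/N nodes, and 8 of 12 passed as higher in spleen. It ranged from 7.06 to 10.20 in lymphoma spleens, and lymphoma spleen 4 held the lowest value. Megakaryocyte genes gave 2 of 11 as higher in FVB/N spleen, and mast cell and eosinophil genes 1 of 12 as higher and 3 of 12 as lower. Of all genes 2.13% passed as higher in FVB/N spleen than in node and 2.14% as lower. The part of these cell types in the red cell values was not tested.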

How the data were processed

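Affymetrix Mouse Gene 1.0 ST arrays measured RNA from spleen and lymph node of 15 mice (30 arrays). Per the series' design text, the authors normalized the arrays by frozen robust multiarray analysis, and the deposited values are log2 levels. They were used as deposited, with scanner files not used, so detection above background was not assessed, and the number of arrays limits the precision. Of 35557 probe sets, 21789 had 1 gene symbol in the platform annotation (21698 matched RefSeq), 1621 several and 12146 none or no entry. The probe set with the highest mean stood for each of 19938 genes.

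All 30 arrays were fitted in limma 3.58.1 (R 4.3.3) with 6 groups and 6 surrogate variables, hidden factors estimated from the data by the iteratively re-weighted algorithm (5 iterations, number set by 20 permutations), as the authors' model also had, leaving 18 residual degrees of freedom. A gene passed at a Benjamini-Hochberg adjusted p below 0.05 over all genes. Every adjusted p here is from limma, and an SE or interval is of the log2 difference. On simulated data for lymphoma against asymptomatic spleen, 85.1% of genes changed by 1 log2 unit were recovered among 19938. Those genes were drawn at random, each with its own residual spread. Restricted members had wide errors in that comparison (SE 0.73 for Rhag and 1.02 for Car1), so the rate does not describe them.

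The members and gene lists were chosen with earlier results of these data known. All members are described. From each other erythroid list the 2 genes with the smallest adjusted p were named, for lymphoma against asymptomatic spleen and for asymptomatic spleen against node. Genes of like pattern are the 10 with the highest r to the mean of the 8 restricted members and the 5 with the highest r to Tfrc and to Car2, leaving out predicted, clone-named and small RNA genes. Genes that make up a count of 5 or fewer were named after their values were seen. Spleen and node of 1 mouse share the animal: their deviations from the group means correlated above 0.1 in 12 of 15 mice (-0.01 to 0.68), and the mouse as a block had a consensus correlation of 0.12 with surrogate variables and 0.29 without. The main fit had no such block and took the arrays as independent, so its p-values do not use the pairing within a mouse. They rest on the spread between arrays left after the surrogate variables, pooled over the 6 groups. Alternatives changed the surrogate variables, batch, block, filter, normalization and arrays kept.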

Additional observations from a re-analysis of the deposited data

Results flagged for a closer look

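In 12 of 40 gene and group combinations 1 array stood far from the other 5. The rule marks about 1 in 20 independent combinations by chance. These genes vary together on the same arrays, so that rate cannot be set against the count. The node of asymptomatic mouse 6 gave 7 of them, all as the highest asymptomatic node. Alas2 was at 11.48 (others 6.64 to 8.10), Klf1 at 7.25 (5.87 to 6.33) and Slc4a1 at 11.58 (6.18 to 7.43). Rhag was at 8.91 (4.34 to 4.78), Kel at 8.44 (4.98 to 5.27), Car1 at 11.14 (5.63 to 7.48) and Car2 at 11.60 (7.81 to 8.89).

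Lymphoma mouse 4 gave 3 more. Its spleen had the lowest Car1, at 6.16 (others 10.70 to 12.65). Its node had the highest Car1, at 10.36 (5.33 to 6.82), and the highest Rhag, at 6.55 (4.25 to 4.87). Lymphoma spleen 1 had the highest Epor, at 9.25 (6.54 to 7.52), and lymphoma node 2 had the lowest Car2, at 8.80 (10.60 to 11.15).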

How the results depend on the processing

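Counts are members called of 10, and the cause of each shift was not tested beyond what a setting removes. The share of all genes called also differed between fits. For spleen against node it was 0% in lymphoma within batch B. In asymptomatic mice it was 13.5% without the node of asymptomatic mouse 6, lymphoma mouse 4 and surrogate variables. Most of these shares are not given beside the counts, so a moved count alone is no result about the members. Without surrogate variables the counts moved to 2 between lymphoma and asymptomatic node, 0 between asymptomatic and FVB/N spleen, 1 and 2 between lymphoma and FVB/N spleen and node, and 1 and 2 between spleen and node of FVB/N and asymptomatic mice. With batch in their place these were 2, 0, 1, 1, 1 and 3. With the mouse as a replicate block and no surrogate variables the first 4 were 2, 0, 1 and 2, and with the mouse number across states as the block 2, 0, 1 and 1. The mouse as a replicate block with surrogate variables gave 1 call for the node minus spleen difference (Car2) and changed no other count by over 1.5 times. Batch with neighbouring-tissue levels gave 2, 0, 1, 2, 0 and 0. Without the 10 arrays high in a neighbouring-tissue list, lymphoma node gave 2 against asymptomatic and 3 against FVB/N, lymphoma against FVB/N spleen 1, and asymptomatic spleen against node 0. The low-level filter (level over 7 on 3 arrays) gave 2 for lymphoma against asymptomatic node and 0 for asymptomatic against FVB/N spleen. Quantile normalization gave 0 for asymptomatic against FVB/N spleen and 2 for FVB/N spleen against node. Averaging probe sets moved no count by over 1.5 times.

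Within batch A, lymphoma node gave 2 against asymptomatic and 1 against FVB/N, asymptomatic against FVB/N spleen 0, and lymphoma spleen against node 5. Within batch B, lymphoma against asymptomatic gave 1 in spleen and 2 in node, and asymptomatic spleen against node 0. The remaining alternatives were chosen after seeing the data. Without the node of asymptomatic mouse 6, lymphoma against asymptomatic node gave 2, lymphoma against FVB/N spleen 1 and lymphoma spleen against node 1. With lymphoma mouse 4 also out, lymphoma node gave 2 against asymptomatic and 2 against FVB/N, and lymphoma spleen against node 6. Without surrogate variables as well, asymptomatic against FVB/N spleen gave 0, lymphoma against FVB/N spleen 1 and node 2, lymphoma against asymptomatic node 2, and spleen against node 9 in asymptomatic and 6 in lymphoma mice. With the closest spleen arrays averaged, lymphoma against asymptomatic spleen gave 1, asymptomatic against FVB/N spleen 0, lymphoma against FVB/N 1 in spleen and 2 in node, and spleen against node 0 in FVB/N and 2 in asymptomatic mice.

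Leaving out each mouse in turn gave 1 to 5 calls for lymphoma against asymptomatic spleen and 2 to 4 for node, 0 to 1 for asymptomatic against FVB/N spleen and 0 to 0 for node, and 1 to 7 and 2 to 6 for lymphoma against FVB/N. Spleen against node gave 0 to 5 in FVB/N, 1 to 7 in asymptomatic and 0 to 6 in lymphoma mice, and the node minus spleen difference 0 to 1. A value counts as reversed here where its sign differs from the main one and either passed. That held for 3 members for lymphoma against asymptomatic node, where all 8 restricted genes had the opposite sign without surrogate variables. Slc4a1 was -0.56 without surrogate variables, with batch in their place and with either replicate block without surrogate variables, -0.06 with batch and neighbouring-tissue levels and -1.53 within batch B. Kel was -0.20 in the first 4 of these and -0.76 within batch B, and Epor was -0.71 within batch B. Over all members and alternatives, 12 values reversed in that sense, 278 lost a call, 101 gained one and 2619 stayed on the same side of the threshold, and 221 of 3010 had another sign than the main value, called or not.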
